A study of Mus musculus with 10 samples.

Results

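The genes described here are 47 genes of DNA replication: the factors that license origins, the factors that activate the helicase, the enzymes of the replication fork, 4 genes of deoxynucleotide supply, and 4 genes that act on chromatin and damaged DNA at the fork. They were chosen by gene symbol, and all probe sets that the array annotation gives to exactly 1 of these symbols were taken, which gave 108 of 45037 probe sets and 47 of 18193 named genes. The values come from mouse keratinocytes, the main cells of the epidermis, with or without RhoA, a small GTPase that controls the actin cytoskeleton. Total RNA was measured on Affymetrix whole-genome mouse arrays, which give 1 signal per probe set. Of the 10 arrays, 4 were of keratinocytes taken fresh from epidermis (2 control, 2 KO) and 6 of primary keratinocytes in culture (3 control, 3 KO). The KO cells, RhoA-null in the series' title, carried the genotype RhoA fl/fl K5 cre, in which both RhoA alleles are floxed. The controls were RhoA fl/+ K5 cre and are named Wildtype in the titles, so they had 1 floxed allele and the same Cre, and no group was free of Cre. The K5 promoter drives Cre in basal keratinocytes and in the cells that derive from them. No label ties a sample to an animal beyond the words biological rep in its title, and the p-values below therefore measure the spread between these samples.

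Before a cell can copy its DNA, the origin recognition complex marks origins, and Cdc6 and Cdt1 load rings of the helicase subunits Mcm2 to Mcm7 onto them. At the start of S phase, Cdc45 and the GINS complex turn each loaded ring into an active helicase, and DNA polymerases, their sliding clamp Pcna and the clamp loader follow it along the fork. In the epidermis this happens in dividing cells, which lie mainly in the basal layer and in hair follicles, while cells that move into the suprabasal layers leave the cycle.

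Many of these genes are textbook targets of E2F transcription factors, so the sequence letters that E2F proteins bind are shown first. RefSeq windows on GRCm38.p6, from 250 bases before to 50 bases after a transcription start, were found for 39 of the 47 genes. The genes Mcm4, Gins1, Gins2, Gins4, Gmnn, Rfc2, Prim2 and Pole had none in the table used. For 7 genes with several windows, the first one listed was read. The E2F-type letters searched on both strands were TTTCCCGC, TTTGGCGC, TTTCGCGC and TTTGCCGC. At least 1 of them occurred in 14 of the 39 windows (35.9%), against 626 of 27025 windows over all genes (2.32%). The share was 8 of 13 windows among the licensing genes (61.5%), 1 of 3 for helicase activation, 4 of 15 for the fork, 0 of 4 for nucleotide supply and 1 of 4 for chromatin and repair. A match is a description of letters and not a measured binding site. The site nearest the start of each of the 14 genes is printed here in gene orientation, because these are the members that share the motif. Capitals mark the letters of that site and lower case the 10 bases on either side, or fewer where the window ends.

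Orc1 (chr4:108579417-108579444, plus strand): tcggttagtgGCGCGAAAagttttctcc
Orc3 (chr4:34614966-34614993, minus strand): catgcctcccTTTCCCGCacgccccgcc
Cdc6 (chr11:98908003-98908030, plus strand): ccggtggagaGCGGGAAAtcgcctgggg
Cdt1 (chr8:122568037-122568064, plus strand): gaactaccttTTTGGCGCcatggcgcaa
Mcm3 (chr1:20820276-20820303, minus strand): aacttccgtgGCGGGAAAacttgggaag
Mcm5 (chr8:75109346-75109377, plus strand): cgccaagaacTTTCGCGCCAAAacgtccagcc
Mcm6 (chr1:128359735-128359762, minus strand): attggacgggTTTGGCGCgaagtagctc
Mcm7 (chr5:138171850-138171877, minus strand): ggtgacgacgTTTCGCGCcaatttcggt
Gins3 (chr8:95633508-95633535, plus strand): cgagtgcggcGCGGGAAAgcgagtttga
Rfc3 (chr5:151651191-151651218, minus strand): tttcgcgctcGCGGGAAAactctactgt
Pola1 (chrX:93632276-93632303, minus strand): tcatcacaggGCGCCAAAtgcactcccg
Pold1 (chr7:44548766-44548786, minus strand): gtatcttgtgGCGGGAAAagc
Pole2 (chr12:69228163-69228190, minus strand): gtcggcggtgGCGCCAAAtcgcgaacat
Pclaf (chr9:65890308-65890335, plus strand): cttggagcgcGCGGGAAAgagacccatt

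In Mcm5, a match on either strand overlaps to form a run of 12 capitals. Mcm3, Mcm6, Mcm7 and Rfc3 held more than 1 separate site, and in Rfc3 the bases before the printed site include the other match, left in lower case. The whole window of Mcm3, a helicase subunit whose values are given below, is printed to show how its matches lie. Capitals mark 2 E2F-type matches, which start 20 and 39 bases after the transcription start, and 3 copies of CCAAT, read on either strand, the letters bound by the factor NF-Y.

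Mcm3 window (chr1:20820263-20820562, minus strand): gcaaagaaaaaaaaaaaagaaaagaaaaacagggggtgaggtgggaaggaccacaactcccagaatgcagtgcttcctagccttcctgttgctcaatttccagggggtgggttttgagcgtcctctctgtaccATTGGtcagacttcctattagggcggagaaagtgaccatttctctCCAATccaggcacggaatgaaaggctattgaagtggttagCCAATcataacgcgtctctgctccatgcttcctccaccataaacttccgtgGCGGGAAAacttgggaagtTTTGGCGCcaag

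CCAAT occurred in 25 of the 39 windows (64.1%) and in 37.9% of all windows. The CHR letters TTTGAA, known from promoters of genes that act late in the cell cycle, occurred in 5 of 39 (12.8%) and in 18.1% of all windows. The windows of Cdc45, Rfc4, Tk1 and Dnmt1, which are among the genes described below, held none of the E2F-type letters searched. The letters did not part the genes by direction. Of the 14 genes with them, 13 were lower in cultured KO cells (median log2 change -0.29) and 13 of 13 tested were higher on the fresh arrays labelled KO (median 0.23). Of the 25 genes without them, 21 were lower in culture (median -0.23) and 23 of 24 tested were higher in fresh cells (median 0.29).

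The fresh and cultured arrays were on different scales: the median signal was 64.1 to 64.8 on fresh arrays and 7.75 to 8 on cultured arrays. Signals were therefore compared only within a condition, with changes given as KO minus control on the log2 scale, where 1 unit is a 2-fold change. The test was limma, a linear model fitted to all probe sets at once, and an adjusted p is its p-value after Benjamini-Hochberg correction for the number of probe sets tested. Log2 signals of arrays of the same group correlated at 0.990 to 0.996 in culture and 0.976 to 0.991 in fresh cells. The basal keratins Krt5 and Krt14 and the basal transcription factor Trp63 were above the array median on all 10 arrays. Of the 7 basal markers listed, 7 were so on every fresh array and 6 on every cultured array of a group, and of the endothelial markers 0 of 4. Markers of other cells were also above the median on both fresh controls: 9 of 9 for Langerhans and other myeloid cells, 4 of 4 for T cells and 13 of 20 for the hair follicle. Rhoa itself, by the probe set that stands for it, was lower in cultured KO cells (10123 ± 1027 in 3 controls and 7892 ± 294 in 3 KO arrays, mean ± SD, limma adjusted p = 0.156). On the fresh arrays labelled KO it was not lower but higher (3793 ± 377 in 2 controls and 4347 ± 72.2 in 2 KO arrays). Another tested probe set of Rhoa had log2 changes of -0.31 in culture and 0.24 in fresh cells. For both probe sets the groups did not overlap in either condition. The position of these probe sets relative to the floxed exon is unknown here, so the labels could not be checked by them. A single fresh array stood apart. Hair follicle markers (20 genes) summed to 69238 on fresh KO replicate 2, against 14864 and 17566 on the fresh controls and 19071 on fresh KO replicate 1. The hair keratin Krt25 read 10946 on that array and 282, 74.7 and 62.3 on the other fresh arrays. The counts of members, the medians of the steps and the values of several genes in fresh cells are therefore also given without it.

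The replication genes were lower in cultured KO cells than in cultured controls and higher in fresh KO cells than in fresh controls. In culture, 42 of 47 genes were lower (52.6% of all genes tested) and 5 higher (47.4%), with a median log2 change of -0.28 against -0.01 over all 10994 genes tested. Of the 47, 26 were lower at an unadjusted limma p under 0.05, where 9.73% of all genes tested were, and 2 were higher (background 8.05%). None passed Benjamini-Hochberg adjustment over all probe sets (0 of 47, background 0.300%). The smallest adjusted p in limma, by the probe sets that stand for the genes, was 0.0822, for Rfc4. The 3 KO arrays lay below the 3 control arrays without overlap for 29 genes (13.5% of all genes) and above them for 4 (11.2%). With the arrays centred on their 75th percentile, 40 genes were lower, and with quantile normalization 41. All signals are of bulk RNA, in which fewer replicating cells and less RNA per cell cannot be told apart.

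In fresh cells the direction was the opposite. Of 45 genes tested, 44 were higher on the arrays labelled KO (52.1% of all genes tested) and 1, Orc5, was lower (47.9%), with a median log2 change of 0.24 against 0.01 over all 11250 genes. At an unadjusted limma p under 0.05, 12 of the 45 were higher (background 7.64%) and 0 were lower (7.75%). No gene of the whole array passed the adjustment in fresh cells (0 of 11250, background 0%), with the smallest adjusted p among the members at 0.274 in limma. The groups did not overlap for 34 higher genes, where 27.6% of all genes tested did so, and for the lower Orc5 (24.7%). Which arrays are in the fit altered the number of higher genes at p under 0.05. It was 6 without control replicate 1, 2 without control replicate 2, 21 without KO replicate 1, and 5 without KO replicate 2, the array with the high hair keratins. Without that array 41 genes were higher and 4 lower (Orc5, Mcm2, Rfc1 and Rpa1), with a median log2 change of 0.17. The medians of the steps without it were 0.11 for licensing, 0.31 for helicase activation, 0.17 for the fork, 0.28 for nucleotide supply and 0.47 for chromatin and repair.

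Both directions held for most members. Of 45 genes tested in both conditions, 40 were lower in culture and higher in fresh cells, a combination found in 27.8% of 9801 genes. For 21 of them the groups did not overlap in either condition (4.72% of all genes), and 10 had an unadjusted limma p under 0.05 in both (1.2% of all genes). The fresh and cultured arrays share no samples. The change in KO cells in culture minus that in fresh cells was below 0 for 41 of 45 genes, with a median of -0.50 on the log2 scale against -0.05 over all genes. A t-test on the 2 limma changes, with their standard errors combined, was used for this difference. The difference had an unadjusted p under 0.05 in that direction for 28 genes (background 12.0%) and in the other for 1, Orc5 (7.87%). After Benjamini-Hochberg adjustment it passed for 1 gene, Pclaf (background 1.06%). The count of 28 depended on which arrays were in the fits.

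**Figure D1:**
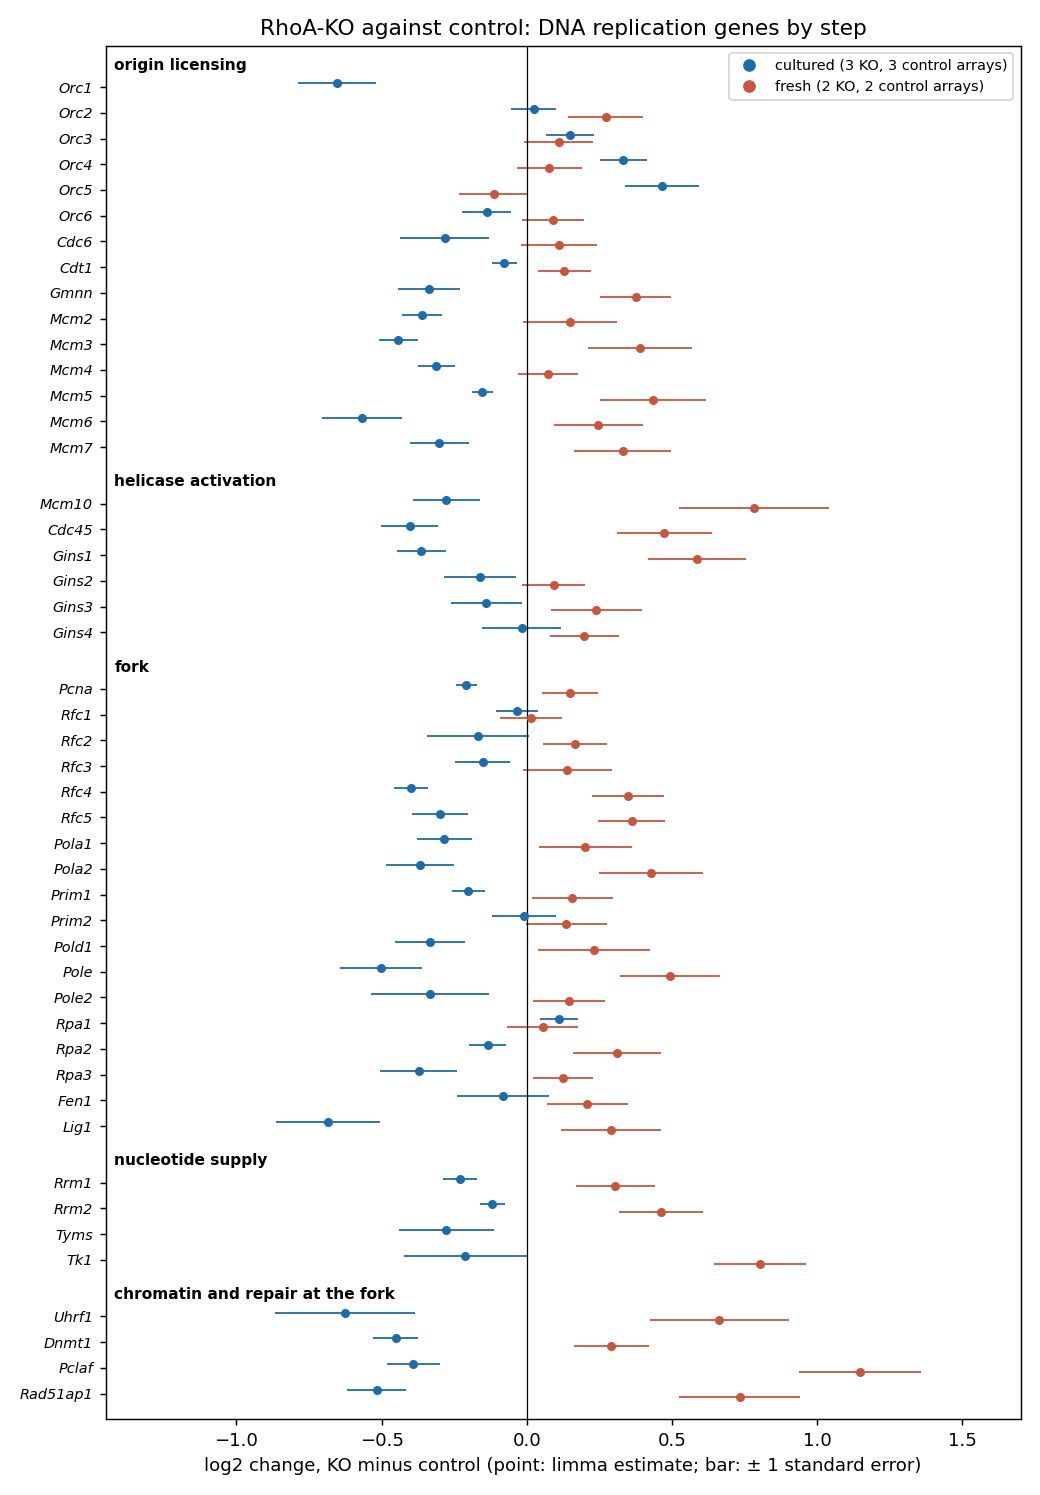
The log2 change in signal, KO minus control, is plotted for each of the 47 genes, grouped by replication step, as limma's estimate with a bar of 1 standard error; blue points are the cultured arrays (3 KO, 3 control) and red points the fresh arrays (2 KO, 2 control). In culture 42 of 47 blue points lie below 0 and in fresh cells 44 of 45 red points lie above 0, with Orc2 to Orc5 and Rpa1 as the blue points above 0.

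Origin licensing, with 15 genes, had a median log2 change of -0.28 in culture and 0.14 in fresh cells, and in culture it held 4 of the 5 members that were higher. The 6 genes of the helicase ring, Mcm2 to Mcm7, were all lower in culture. Each had an unadjusted limma p under 0.05 (background 9.73%) and no overlap of the groups (13.5% of all genes tested). By the probe sets that stand for the genes, their log2 changes ran from -0.57 (Mcm6) to -0.15 (Mcm5). In fresh cells all 6 were higher by 0.07 to 0.43, but 0 had a p under 0.05 (background 7.64%), and the groups were apart for only 3 (27.6% of all genes tested). The difference between the conditions had an unadjusted p under 0.05 for 6 of 6 (-0.83 to -0.38, background 12.0%).

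Mcm3 read 6713, 5830 and 6142 signal units on the cultured controls and 4430, 4643 and 4656 on the cultured KO arrays (log2 change -0.44, SE 0.07, limma adjusted p = 0.0884). On fresh arrays it read 308 and 280 in controls and 331 and 448 in KO cells (log2 change 0.39, SE 0.18, limma adjusted p = 0.436), and the change was 0.17 without KO replicate 2. Each KO array was below every control array in culture and above every control array in fresh cells. Mcm2 read 2932, 3206 and 3308 on the cultured controls and 2370, 2477 and 2500 on the KO arrays (log2 change -0.36, limma adjusted p = 0.113). In fresh cells Mcm2 groups overlapped, with 342 and 340 in controls and 331 and 433 in KO cells (log2 change 0.15), and the change was -0.04 without KO replicate 2. Mcm5 read 20174, 19978 and 20556 on the cultured controls and 18387, 18082 and 18139 on the KO arrays (log2 change -0.15, limma adjusted p = 0.154). Its fresh signals were 1223 and 1072 in controls and 1308 and 1830 in KO cells (log2 change 0.43, limma adjusted p = 0.403), and the change was 0.19 without KO replicate 2. Other probe sets of Mcm5 had log2 changes of -0.42 and -0.59 in culture. The latter read only 25.6 in controls and 17.0 in KO cells on average and was not tested in fresh cells.

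Of the loading factors, Cdt1 and Cdc6, which bring the ring to the origin, had log2 changes of -0.08 and -0.28 in culture and 0.13 and 0.11 in fresh cells by the probe sets that stand for them, none with an unadjusted limma p under 0.05. Another probe set of Cdt1 had a log2 change of -0.45 in culture, without overlap of the groups (limma adjusted p = 0.204), and 0.06 in fresh cells. Gmnn encodes geminin, which binds Cdt1 and blocks loading once S phase has begun. It read 4927, 5905 and 5436 on the cultured controls and 3889, 4810 and 4198 on the KO arrays (log2 change -0.34, SE 0.11, limma adjusted p = 0.232). In fresh cells it read 645 and 588 in controls and 749 and 851 in KO cells (log2 change 0.37, SE 0.12, limma adjusted p = 0.334). Neither pair of groups overlapped. Of the licensing genes, Gmnn had the smallest p in fresh cells and for the difference (-0.71, 95% interval -1.07 to -0.36, t-test adjusted p = 0.0685).

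In the origin recognition complex the directions were mixed. In culture 4 of its 6 genes were higher and 2 lower, and in fresh cells 4 of 5 were higher. Orc5 read 936, 892 and 1002 on the cultured controls and 1551, 1165 and 1219 on the KO arrays (log2 change 0.47, SE 0.13, limma adjusted p = 0.192). On fresh arrays it read 440 and 488 in controls and 436 and 421 in KO cells (log2 change -0.11). By the probe sets that stand for the genes, it was the only member that was lower there. Orc3 and Orc4 were higher there by those probe sets, but other probe sets of theirs were lower without overlap, at -0.36 and -0.31. The difference of Orc5 between conditions was above 0, as it was for 4 of the 45 members (0.58, 95% interval 0.20 to 0.96, t-test adjusted p = 0.131). Orc4 was also higher in culture, at 2392, 2502 and 2296 in controls and 3263, 2770 and 3034 in KO cells (log2 change 0.33, limma adjusted p = 0.163). Orc3 (0.15) and Orc2 (0.02) had smaller changes in culture, and that of Orc2 was -0.03 without control replicate 1. Orc1, the subunit whose gene is a classical E2F target and whose site is printed above, went the other way. It read 601, 738 and 807 on the cultured controls and 425, 483 and 448 on the KO arrays (log2 change -0.65, SE 0.13, limma adjusted p = 0.128). In fresh cells this probe set was above the array median on 1 of 4 arrays, KO replicate 1, and was not tested. Another probe set of Orc1 had log2 changes of -0.18 in culture and 0.00 in fresh cells, with overlapping groups in both. The 6th subunit, Orc6, had log2 changes of -0.14 in culture and 0.09 in fresh cells.

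Helicase activation comprised Cdc45, the 4 GINS subunits and Mcm10, which binds the helicase as it starts to unwind. All 6 were lower in culture (median log2 change -0.22, 2 with an unadjusted limma p under 0.05, background 9.73%). All 6 were higher in fresh cells without overlap of the groups, where 27.6% of all genes tested were (median 0.36, 3 with p under 0.05, background 7.64%). Cdc45 and Gins1 had p under 0.05 in both conditions.

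Gins1 read 2003, 1834 and 1701 on the cultured controls and 1378, 1508 and 1414 on the KO arrays (log2 change -0.36, SE 0.08, limma adjusted p = 0.157). In fresh cells its signals were 264 and 202 in controls and 333 and 361 in KO cells (log2 change 0.59, SE 0.17, limma adjusted p = 0.317). The KO arrays were thus below all controls in culture and above all controls in fresh cells. Cdc45 showed the same order, with 381, 408 and 367 against 284, 311 and 280 in culture (log2 change -0.40, SE 0.10, limma adjusted p = 0.163). Its fresh signals were 79.9 and 74.2 in controls and 96.7 and 118 in KO cells (log2 change 0.47, SE 0.16, limma adjusted p = 0.346). Mcm10 went from 72.7 and 77.6 in fresh controls to 101 and 166 in KO cells (log2 change 0.78, SE 0.26, limma adjusted p = 0.339), and its change was 0.42 without KO replicate 2, when that of Gins1 was 0.53 and that of Cdc45 was 0.33. In culture it read 716, 573 and 672 in controls and 502, 544 and 568 in KO cells, again without overlap (log2 change -0.28, limma adjusted p = 0.325). By the probe sets that stand for them, Gins2, Gins3 and Gins4 had log2 changes of -0.16, -0.14 and -0.02 in culture and 0.09, 0.24 and 0.20 in fresh cells, and none had a p under 0.05 in either. Another probe set of Gins3 had a log2 change of -0.44 in culture, without overlap of the groups (limma adjusted p = 0.154).

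At the fork, 17 of 18 genes were lower in culture (median log2 change -0.25, 10 with an unadjusted limma p under 0.05, background 9.73%). All 18 were higher in fresh cells (median 0.18, 3 with p under 0.05, background 7.64%). The sliding clamp Pcna holds polymerases on DNA, and the RFC complex, encoded by Rfc1 to Rfc5, opens the clamp and loads it. Pcna read 39392, 40194 and 38327 on the cultured controls and 33682, 34593 and 33811 on the KO arrays (log2 change -0.21, SE 0.04, limma adjusted p = 0.101). On fresh arrays it read 7114 and 5989 in controls and 7336 and 7147 in KO cells (log2 change 0.15, SE 0.10, limma adjusted p = 0.558). The groups were apart in both conditions, in fresh cells by a narrow margin.

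Within the clamp loader, Rfc4 and Rfc5 had the larger changes. By the probe sets that stand for the genes, Rfc4 had the smallest p of all members in culture. It read 4719, 5063 and 4957 in controls and 3575, 3877 and 3736 in KO cells (log2 change -0.40, SE 0.06, limma adjusted p = 0.0822). Its fresh signals were 246 and 247 in controls and 298 and 330 in KO cells (log2 change 0.35, SE 0.12, limma adjusted p = 0.352). Rfc5 read 2521, 2500 and 2721 on the cultured controls and 1847, 2220 and 2251 on the KO arrays (log2 change -0.30, limma adjusted p = 0.242). Its fresh signals were 447 and 405 in controls and 554 and 541 in KO cells (log2 change 0.36, limma adjusted p = 0.331). For Rfc4 and Rfc5 no KO array overlapped a control array in either condition. By the probe sets that stand for the genes, the large subunit Rfc1 had log2 changes of -0.03 in culture and 0.01 in fresh cells. Rfc2 and Rfc3 had -0.17 and -0.15 in culture, and none of these had a p under 0.05. Other probe sets of Rfc1 disagreed, at -0.28 and 0.10 in culture and 0.01 and -0.64 in fresh cells, also without a p under 0.05.

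Polymerase alpha and primase lay the primers. In culture 3 of their 4 genes had an unadjusted limma p under 0.05 (background 9.73%). These were Pola1, Pola2 and Prim1, at log2 changes of -0.28, -0.37 and -0.20. Prim2 had -0.01. Polymerases delta and epsilon copy the lagging and the leading strand. Pole, the catalytic subunit of epsilon, read 1112, 1113 and 1437 on the cultured controls and 758, 872 and 948 on the KO arrays (log2 change -0.50, SE 0.14, limma adjusted p = 0.199). On fresh arrays it read 156 and 148 in controls and 186 and 244 in KO cells (log2 change 0.49, SE 0.17, limma adjusted p = 0.349), and the change was 0.30 without KO replicate 2. The groups of Pole were apart in both conditions. Pold1 and Pole2 were lower in culture by nearly the same amount (-0.33 each), Pold1 with a p under 0.05 and Pole2 without.

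Flap removal and sealing of Okazaki fragments depend on Fen1 and Lig1. By the probe sets that stand for the genes, Lig1, DNA ligase I, had the lowest log2 change of all members in culture (-0.69, SE 0.18, limma adjusted p = 0.178). It read 3151, 1922 and 2462 in controls and 1535, 1572 and 1487 in KO cells. Another probe set, of Dnmt1, was at -0.71. The controls of Lig1 were spread more widely than its KO arrays, and its fresh groups overlapped (500 and 427 against 495 and 645). By the probe set that stands for it, Fen1 had log2 changes of -0.08 in culture and 0.21 in fresh cells, with overlapping groups in culture. Another probe set of Fen1 was at -0.30 and 0.43, without overlap in either condition (limma adjusted p = 0.293 and 0.364). The single-strand binding protein RPA has 3 subunits, of which Rpa3 (-0.37) had a p under 0.05 in culture and Rpa2 (-0.14) did not. Rpa1 was the 1 gene of the fork that was higher in culture, at 0.11, and its fresh value of 0.06 became -0.0013 without control replicate 1 and -0.08 without KO replicate 2.

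**Figure D2:**
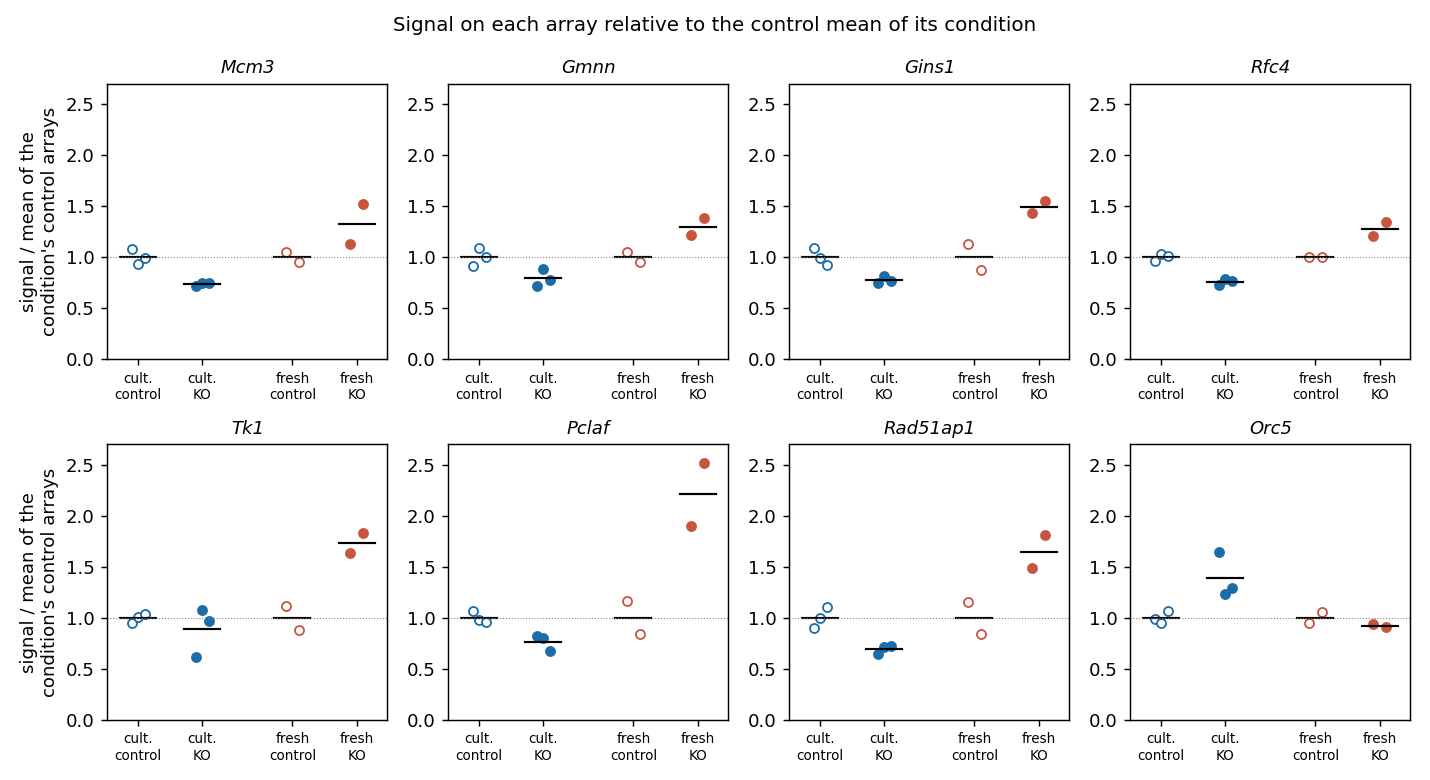
Signal on each array divided by the mean of the control arrays of its condition, for 8 genes; blue points are cultured and red points fresh arrays, open points controls and filled points KO, and each black line is a group mean. For Mcm3, Gmnn, Gins1, Rfc4, Pclaf and Rad51ap1 every filled blue point lies below the open blue points and every filled red point above the open red points, while the blue groups of Tk1 overlap and Orc5 runs the other way.

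Of the nucleotide supply genes, all 4 were lower in culture (median log2 change -0.22, 2 with an unadjusted limma p under 0.05, background 9.73%). In fresh cells 3 of 3 tested were higher (median 0.46, 2 with p under 0.05, background 7.64%). Rrm1 and Rrm2 form ribonucleotide reductase, which makes deoxynucleotides. Rrm1 read 9173, 9693 and 10233 on the cultured controls and 8587, 8009 and 8215 on the KO arrays (log2 change -0.23, SE 0.06, limma adjusted p = 0.175). Its fresh signals were 895 and 729 in controls and 958 and 1038 in KO cells (log2 change 0.30, limma adjusted p = 0.425). Rrm2, the subunit made in S phase, read 28777, 29408 and 30579 in cultured controls and 26784, 26843 and 28139 in KO cells (log2 change -0.12, SE 0.04, limma adjusted p = 0.273). In fresh cells it read 1473 and 1365 in controls and 1716 and 2223 in KO cells (log2 change 0.46, SE 0.15, limma adjusted p = 0.329), and the change was 0.28 without KO replicate 2. By these probe sets the groups did not overlap in either condition. Other probe sets of Rrm2 had log2 changes of -0.43 and -0.34 in culture, without overlap, and another probe set of Rrm1 had -0.11, with overlapping groups.

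Tk1 is the thymidine kinase of dividing cells. It read 2128, 2263 and 2324 on the cultured controls and 1383, 2412 and 2162 on the KO arrays (log2 change -0.21, SE 0.21, limma adjusted p = 0.665). The groups overlapped, KO replicate 1 alone was clearly lower, and without it the change was 0.03. In fresh cells Tk1 was higher in KO cells, with 343 and 271 in controls and 503 and 562 in KO cells (log2 change 0.80, SE 0.16, limma adjusted p = 0.274). Tyms, thymidylate synthase, has a single-symbol probe set that read only 14, 17.2 and 22.0 in cultured controls and 15.1, 14 and 14.1 in KO cells, and it was not tested in fresh cells. Another probe set, which the annotation shares between Tyms and the pseudogene Tyms-ps, was left out of the counts, since it has several symbols. It read 2052 ± 83.8 and 1760 ± 52.5 in culture (log2 change -0.22, limma adjusted p = 0.204) and 424 ± 39.9 and 571 ± 48.4 in fresh cells (log2 change 0.43), controls first.

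The 4 genes of chromatin and repair at the fork had the widest gap between the conditions, with a median log2 change of -0.48 in culture and 0.70 in fresh cells. All 4 had an unadjusted limma p under 0.05 in culture (background 9.73%) and 3 of 4 in fresh cells (background 7.64%). No groups overlapped in culture (13.5% of all genes tested) or in fresh cells (27.6%). Pclaf encodes a small protein that binds Pcna. It read 5278, 4865 and 4762 on the cultured controls and 4061, 3976 and 3360 on the KO arrays (log2 change -0.39, SE 0.09, limma adjusted p = 0.158). In fresh cells it read 817 and 591 in controls and 1339 and 1773 in KO cells, 2.22-fold higher (log2 change 1.15, SE 0.21, limma adjusted p = 0.274). That was the largest change of any member. Its difference between the conditions was -1.54 on the log2 scale (95% interval -2.08 to -1.0, limma adjusted p = 0.0398), and it was the only member gene to pass the adjustment by the probe set that stands for it. The adjusted p of this difference by the t-test was 0.0680 without cultured control replicate 3 and 0.0666 without cultured KO replicate 3. The difference also no longer passed with either fresh control left out, which leaves 1 fresh control.

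Rad51ap1 encodes a DNA-binding protein of DNA repair. It read 1561, 1738 and 1927 on the cultured controls and 1128, 1251 and 1265 on the KO arrays (log2 change -0.52, SE 0.10, limma adjusted p = 0.119). On fresh arrays it read 96.2 and 70.4 in controls and 124 and 151 in KO cells (log2 change 0.73, SE 0.21, limma adjusted p = 0.316). The difference was -1.25 (t-test adjusted p = 0.0603). Another probe set of Rad51ap1 had a difference of -1.46 (t-test adjusted p = 0.0268, passed by 0.879% of all probe sets). That probe set went from 118 and 87.7 in fresh controls to 168 and 188 in fresh KO cells. In culture it went from 875, 848 and 1059 to 492, 649 and 628. Dnmt1 copies DNA methylation onto the new strand, and Uhrf1 brings it there. Dnmt1 read 2472, 2294 and 2677 on the cultured controls and 1744, 1824 and 1865 on the KO arrays (log2 change -0.45, SE 0.08, limma adjusted p = 0.102). In fresh cells it read 1244 and 1048 in controls and 1309 and 1491 in KO cells (log2 change 0.29, limma adjusted p = 0.424). Uhrf1 had log2 changes of -0.63 and 0.66, with control replicate 1 at 6776 against 3502 and 4149 on the other cultured controls.

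The pattern did not rest on a single KO array. In culture, KO replicates 1, 2 and 3 lay below all controls for 36, 32 and 31 of the 47 genes, where 33.2%, 26% and 27.6% of all genes did. In fresh cells, KO replicate 1 lay above both controls for 37 of 45 genes (40.8% of all genes), and KO replicate 2 for 41 (41.9%). On KO replicate 1 Krt25 was no higher than in the controls, but the sum of the hair follicle markers was (19071 against 14864 and 17566). As a median over the members, the log2 deviation from the control mean was -0.32, -0.22 and -0.21 on the cultured KO arrays and 0.17 and 0.34 on the fresh KO arrays. On the control arrays it stayed between -0.06 and 0.06.

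**Figure D3:**
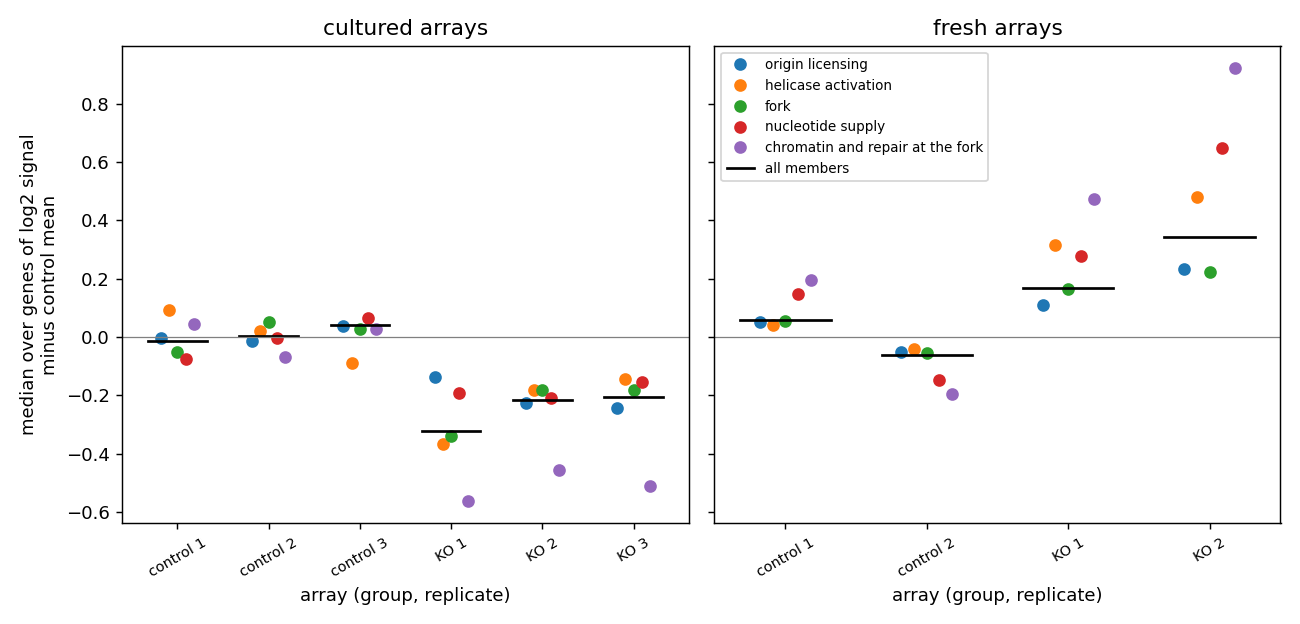
For each array, the median over the genes of a step of the log2 signal minus the mean log2 signal of the control arrays of that condition, with a black line for the median over all tested members. All steps lie below 0 on the 3 cultured KO arrays and above 0 on both fresh KO arrays, where chromatin and repair reach 0.47 and 0.92 and origin licensing 0.11 and 0.23.

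**Figure D4:**
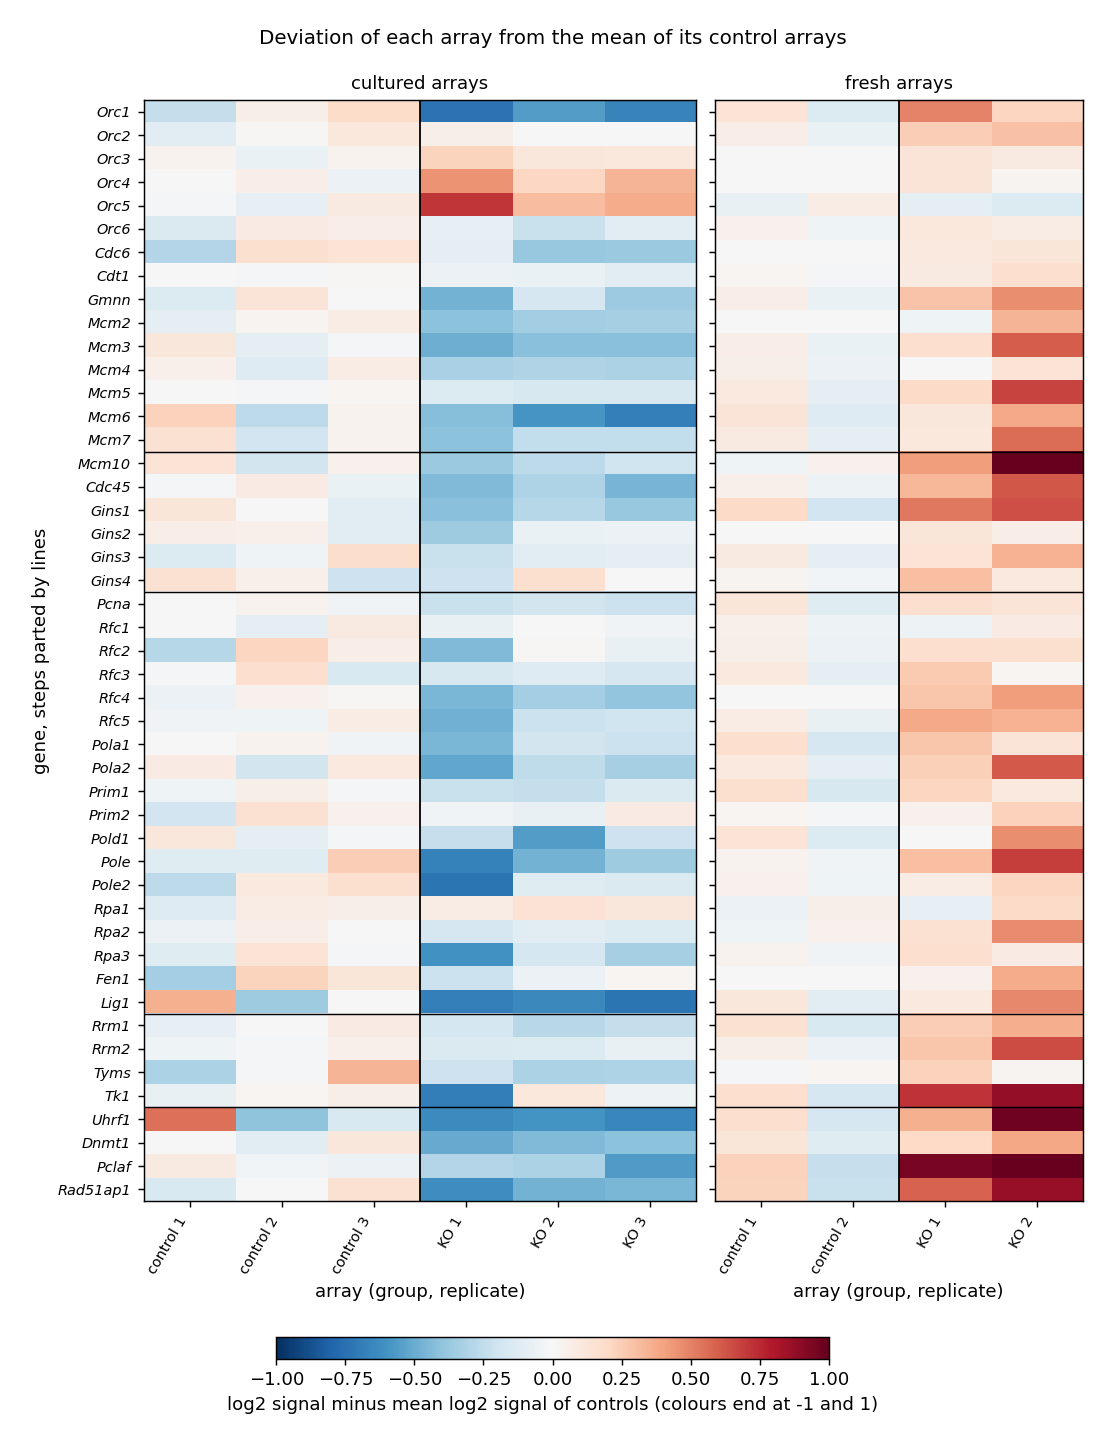
Each cell shows the log2 signal of a gene on an array minus the mean log2 signal of that gene over the control arrays of the condition, blue for lower and red for higher, with colours ending at -1 and 1. The cultured KO columns are blue except for Orc2 to Orc5 and scattered cells such as those of Rpa1, and the fresh KO columns are red except for Orc5 and a few cells of KO replicate 1 such as Mcm2, Rfc1 and Rpa1.

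Most genes with several probe sets gave the same direction on each. In culture 33 genes had more than 1 tested probe set, and in 29 of them all pointed the same way. The 4 that did not were Orc4, Mcm10, Rfc1 and Rpa1. In fresh cells 27 genes had more than 1, and 23 were of 1 direction, with Orc3, Orc4, Mcm4 and Rfc1 mixed. In neither condition did a gene have probe sets with an unadjusted limma p under 0.05 in both directions (0 genes). Over all 97 member probe sets tested in culture, 49 were lower at p under 0.05 (8.49% of all probe sets), and 17 of 83 tested in fresh cells were higher (6.01%). Averaged over the probe sets of each gene, 41 of 46 members were higher in fresh cells and 5 were lower. Among the lower ones were Orc3 and Orc4, at -0.12 each. The probe sets of Mcm2, Mcm3, Mcm5, Mcm7, Gins2, Pold1, Fen1, Rrm2 and Dnmt1 used here carry suffixes by which the maker marks sets that may also read related transcripts.

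By rank within each array, the replication genes stood higher in culture than in fresh cells. The median member lay at percentile 91.0 of all probe sets in cultured controls, 89.6 in cultured KO cells, 79.8 in fresh controls and 81.9 in fresh KO cells. For 43 of 47 genes every cultured array ranked the gene above every fresh array, which 39.9% of all genes did. Gins2 was the 1 gene ranked below on every array. The medians of both KO groups lay between those of the control groups. Across the 45 genes tested in both, the cultured and the fresh log2 change had a Pearson r of -0.51, given as a description, since genes of the same arrays are not independent.

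Replication factors outside the 47 showed the same directions. Of 36 matched on the array, among them fork-protection factors, histone chaperones and further polymerase subunits, 33 were lower in culture (20 with an unadjusted limma p under 0.05, background 9.73%, median log2 change -0.31). In fresh cells 31 of 35 were higher (10 with p under 0.05, background 7.64%, median 0.23). The difference between conditions passed Benjamini-Hochberg adjustment for 2 of 35 (background 1.06%), Asf1b and Dbf4. Asf1b, a histone chaperone, was at -1.20 (t-test adjusted p = 0.0182). Dbf4, the activating subunit of the kinase that fires origins, was at -0.96 (t-test adjusted p = 0.0261). The polymerase delta subunit Pold2 read 4079, 3299 and 3371 on the cultured controls and 2482, 2270 and 2235 on the KO arrays (log2 change -0.62, limma adjusted p = 0.0979).

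Of 14 other enzymes of nucleotide supply on the array, 9 were lower in culture, where 52.6% of all genes tested were, and 5 were higher. Of these, 3 and 1 had an unadjusted limma p under 0.05 (background 9.73% and 8.05%). In fresh cells 12 were higher (52.1% of all genes) and 2 lower (2 and 1 with p under 0.05, background 7.64% and 7.75%). Dut, which removes dUTP, had log2 changes of -0.61 in culture and 0.32 in fresh cells, and its difference passed (-0.93, t-test adjusted p = 0.0489). Shmt1 and Shmt2, of the folate cycle, were at -0.38 and -0.41 in culture, and Nme1, a nucleoside diphosphate kinase, was at 0.92 in fresh cells. Of the regulators of S phase entry, 24 of 33 were lower in culture (10 with p under 0.05, background 9.73%) and 9 higher (2 with p under 0.05, background 8.05%). In fresh cells 22 of 33 were higher (7 with p under 0.05, background 7.64%) and 11 lower (1 with p under 0.05, background 7.75%). Ccna2, cyclin A, had log2 changes of -0.52 in culture and 0.87 in fresh cells (difference -1.39, t-test adjusted p = 0.0279). Cdk4, the kinase partner of D-type cyclins, had -0.37 and 0.46. E2f7, a repressor of E2F targets, had -0.08 and 0.79.

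By their sums, markers of dividing cells had the directions of the replication genes in both conditions, and the lists of other cell types given below did not. A list of proliferation markers (6 of 7 matched: Mki67, Top2a, Cdk1, Aurkb, Bub1 and Plk1) summed to 37713 to 44452 on the cultured controls and 27608 to 32341 on the KO arrays. In fresh cells it summed to 2793 to 3948 in controls and 5316 to 6303 in KO cells, with no overlap in either condition. All 6 were lower in culture (5 with an unadjusted limma p under 0.05, background 9.73%) and all 6 were higher in fresh cells, each with p under 0.05 (background 7.64%). Suprabasal markers were higher in cultured KO cells for 9 of 9 genes (sum 38357 to 45679 in controls, 53264 to 63848 in KO cells), while in fresh cells 4 of 9 were higher, with overlapping sums. Markers of Langerhans and other myeloid cells (9 genes) summed to 23798 to 29769 in fresh controls and 13539 to 22038 in fresh KO cells, and to 3866 to 5166 and 2425 to 3051 in culture. Melanocyte markers (7 genes) summed to 1177 to 1290 in fresh controls, 1486 on fresh KO replicate 1 and 4941 on fresh KO replicate 2. Sebaceous gland markers (4 genes) summed to 3277 to 4176 in cultured controls and 1745 to 2527 in cultured KO cells, and to 8911 to 9308 and 7488 to 7578 in fresh cells. Fibroblast markers (7 genes) summed to 68.9 to 109 in cultured controls and 125 to 199 in cultured KO cells, and to 1775 to 2007 and 2195 to 2570 in fresh cells, so neither list's sums overlapped in either condition. The part of these markers, and of the hair follicle markers above, in the changes of the replication genes was not tested.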

How the data were processed

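Signals of 4 fresh and 6 cultured arrays were analysed. The deposited values are linear intensities, 1 for each probe set on each array. MAS5, which condenses probe brightness into such intensities, is named in the submitters' processing notes, with settings not given in the sources used here. Different procedures for fresh and cultured arrays could set the 2 scales, so log2 values of the deposited intensities were compared within a condition only. Precision is limited by the few arrays, 2 or 3 in a group.

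The platform annotation gave 34945 probe sets 1 symbol, 932 several and 9160 none. Checked against RefSeq (GRCm38.p6), 0 symbols needed updating. A probe set was tested where its signal exceeded the median of the same array on 2 or more arrays of a condition: 22682 in culture and 22893 in fresh cells, with 97 and 83 of the 108 member probe sets. A probe set can pass this filter through the group where it is high. With a stricter filter, above the median on every array of a condition, the numbers of member genes tested stayed at 47 and 45. A gene stands by the probe set with the highest mean log2 signal over the 10 arrays.

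KO and control were compared with limma 3.58.1 in R 4.3.3 (lmFit, eBayes with a mean-variance trend, 2-sided), adjusted by Benjamini-Hochberg over all probe sets tested, at 0.05. The difference between conditions was tested outside limma by a t-test. It divided the difference of the 2 changes by the fits' combined moderated standard errors, with degrees of freedom by Satterthwaite's formula. The p-values were adjusted by Benjamini-Hochberg over all probe sets tested in both conditions. In simulated arrays, 62% of 2-fold and 88% of 4-fold changes were called in the cultured design (15 false calls), and 24% and 70% in the fresh design (0 false calls).

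The members and lists were chosen with earlier results of these data known. Values on every array are given for the 2 genes per step with the smallest p in each condition and for Mcm3 and Pcna. Log2 changes are given for genes against the direction of their step or not tested. Of other pathway lists, up to 4 genes by smallest p are named; Orc1, Orc4, Orc5, Lig1, Uhrf1 and genes whose difference passed were added after their values were seen. Alternatives covered the filter, scaling, an offset of 16, the variance trend, array weights, the replicate block, 1 fit over 10 arrays, the probe set rule and each replicate left out.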

Additional observations from a re-analysis of the deposited data

Results flagged for a closer look

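The KO effect differed between culture and fresh cells, by a test of the difference itself, for 1 probe set each of 2 genes. For Pclaf, which binds the sliding clamp, the effect in culture minus that in fresh cells was -1.54 on the log2 scale (t-test, Benjamini-Hochberg adjusted p = 0.0398). All 3 cultured KO arrays lay below and both fresh KO arrays above their controls. For Rad51ap1, a gene of DNA repair, this difference was -1.46 on a probe set other than the one that stands for the gene. Its order of arrays was the same (t-test, Benjamini-Hochberg adjusted p = 0.0268). Among all 18773 probe sets tested in both conditions, 165 passed (0.879%). No group had the 4 arrays needed to test for an outlying array.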

How the results depend on the processing

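Of 718 values of single genes recomputed under the alternatives, 694 kept their direction and their side of the threshold, 11 newly passed it, 5 lost it and 8 reversed. The genes recomputed singly were those chosen by smallest p, Mcm3, Pcna and those against the direction of their step. Their reversed log2 changes were small. Orc2 in culture was at -0.027 with array weights, and with an array left out it ran from -0.031 to 0.075, Tk1 in culture from -0.37 to 0.030, Mcm2 in fresh cells from -0.045 to 0.34 and Rpa1 in fresh cells from -0.083 to 0.19. As a mean over probe sets, 5 of all 46 members tested were lower in fresh cells, among them Orc3 and Orc4 at -0.12 each. The 5 lost calls were all of the Pclaf difference, including an adjusted p of 0.0513 in 1 limma fit over 10 arrays.

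The member genes passing adjustment in culture (0) became 4 with array weights and 2 in the fit over 10 arrays, those in fresh cells (0) became 1 in that fit, and those for the difference (1) became 2 with the stricter filter, 4 with 75th percentile centring and 0 in the fit over 10 arrays. Leaving out each array in turn gave 0 to 5 in fresh cells and 0 to 20 for the difference. It gave member medians of -0.29 to -0.21 in culture, 2 to 21 higher genes at p under 0.05 in fresh cells and 18 to 33 lower ones for the difference. Over all probe sets, the 62 calls in culture became 2 with no filter, 128 with 75th percentile centring, 7 without the trend, 299 with array weights and 512 in the fit over 10 arrays, and 0 to 95 with an array left out. The 0 calls in fresh cells (limma, 1376 probe sets higher and 1577 lower at an unadjusted p under 0.05) became 410 in that fit and 0 to 945 with an array left out, and the 165 for the difference became 289 with 75th percentile centring, 5 in that fit and 2 to 1302 with an array left out. The cause of these shifts was not tested.

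Whether the replicate numbers pair the samples could not be settled. In culture, deviations of same-numbered arrays correlated at 0.32, 0.08 and 0.25, and those of other pairs at -0.30 to 0.17. Cultured control replicate 2 correlated best with KO replicate 3 (0.17). In fresh cells the same-numbered value was -0.05, which cannot decide, since the deviations of 2 arrays in a group mirror each other. The main fits did not pair the samples. With the replicate block, 17 probe sets passed in culture, and no count of members crossed the threshold.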
